A study of Rattus norvegicus with 4 samples.

Results

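The miRNAs rno-miR-188-5p, rno-miR-290, rno-miR-211-3p, rno-miR-130b-3p, rno-miR-1249 and rno-miR-3593-3p are 6 of the 719 rat miRNAs on the array (the prefix rno, for rat, is left out below) and were several-fold brighter on the severe array than on the naive or moderate one. They were chosen by these very differences, outside the miRNA families known from blood cells, muscle and liver, so the severe values below are a description and not a test. The RNA came from exosomes, vesicles shed by cells, in the serum of male rats (strain given in the design text as baffolo). The 4 groups had 1 array each: naive (day 0, no injection), light disease (day 35), moderate disease (day 49) and severe disease (day 49). The protocol has cells of a hepatocellular carcinoma (HCC) line injected, whereas the design text speaks of a single dose of HCC exosomes; the line is not named. The design text counts 4 independent experiments per time point, of which 1 array per group is analysed here, and whether the RNA of an array was pooled over rats is not stated. Disease and day differ together between the naive array and the others, and between the light array and the arrays of day 49, and cannot be told apart. Since a group is 1 array, no p-value can be given, and each ± is a standard error computed from the replicate spots, which covers spot noise only. The number of arrays limits the precision of every value, and a difference is a difference between 2 arrays. Values given as a series of 4 follow the order naive, light, moderate, severe.

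A miRNA is a short RNA that guides silencing complexes to messenger RNAs, mainly through its seed, the bases next to its 5′ end, and vesicles in serum carry miRNAs of many tissues. miR-188-5p comes from a cluster on the X chromosome inside the Clcn5 gene and has been reported to restrain the growth of human liver cancer cells. miR-290 belongs to a rodent cluster that marks embryonic stem cells. miR-211 lies inside Trpm1, a gene of melanocytes and retina, and its 5p strand is the better known one in mouse and human. miR-130b-3p shares its seed with miR-130a-3p and the miR-301 family and has been reported as raised in human HCC, where it was linked to tumour-initiating cells. miR-1249 lies within the span of the Kiaa0930 gene, and miR-3593 has no miRNA gene nearby in the annotation used for gene order.

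The mature sequences of all 6 were found in RefSeq (build GRCr8) and are shown because 5 of them hold guanine runs outside the seed. They run 5′ to 3′, with the seed (bases 2 to 8) in capitals:
rno-miR-188-5p: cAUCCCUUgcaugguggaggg
rno-miR-290: uCUCAAACuaugggggca
rno-miR-211-3p: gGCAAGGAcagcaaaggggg
rno-miR-130b-3p: cAGUGCAAugaugaaagggcau
rno-miR-1249: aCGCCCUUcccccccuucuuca
rno-miR-3593-3p: cUUCAACCuuaagggggccuca
The 6 miRNAs had 6 different seeds. Outside the seed, 5 of the 6 had a run of at least 3 guanines, 3 of them (miR-290, miR-211-3p and miR-3593-3p) a run of 5. The exception, miR-1249, had 1 guanine in all and a run of 7 cytosines, at bases 9 to 15. Of the 641 array miRNAs with a RefSeq sequence, 161 (25.1%) held a run of at least 3 guanines and 9 (1.4%) a run of at least 5. Here a run could lie anywhere, seed included. Of the 106 of these measured on the severe array (as defined below), 32 (30.2%) and 4 (3.8%) did, the 6 among them. Among the 100 outside the 6 the numbers were 27 and 1. This motif, GGG, was searched on the mature strand alone.

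Each miRNA had 2 probes of 10 spots, and its value is the sum of the probe means of background-subtracted intensity. On the severe array miR-188-5p read 135 ± 1.64 intensity units. Its naive, light and moderate values were 30.1 ± 1.34, 15.0 ± 0.833 and 47.0 ± 1.69. Thus it was brightest on the severe array and dimmest on the light array, where 0 of its 20 spots were well above background and the scanner software did not detect it. On the naive array 11 of the 20 spots were well above background, so its naive value rests on a dim signal. In RNA from serum vesicles, more vesicles of a kind and more copies per vesicle cannot be told apart, nor can more cells of a type and more RNA per cell.

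miR-290 read 18.0 ± 0.968, 15.8 ± 1.15, 33.7 ± 1.18 and 69.3 ± 1.10, with the severe value on top. All 20 of its spots were well above background on the severe array and 13 on the moderate array, against 0 on the naive and light arrays. The scanner software called it detected on the naive array all the same, so that the naive value serves here as an upper limit. miR-1249 read 4.88 ± 0.905, 6.39 ± 0.768, 19.5 ± 0.915 and 45.8 ± 1.08. It was detected on the moderate and severe arrays and not on the other 2, and the spots well above background numbered 0, 0, 5 and 18 of 20.

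The other 3 miRNAs were detected on all 4 arrays, with 20 of 20 spots well above background on each. miR-211-3p read 137 ± 2.05, 126 ± 1.16, 176 ± 2.99 and 469 ± 2.78. miR-130b-3p read 177 ± 2.22, 164 ± 3.88, 353 ± 5.60 and 518 ± 6.46, so that its moderate value lay between the naive and the severe one. miR-3593-3p read 97.7 ± 1.22, 55.8 ± 0.704, 92.4 ± 1.06 and 257 ± 1.22. Before scaling, the moderate value was 0.946 times the naive one for miR-3593-3p and 1.28 times for miR-211-3p.

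**Figure D1:**
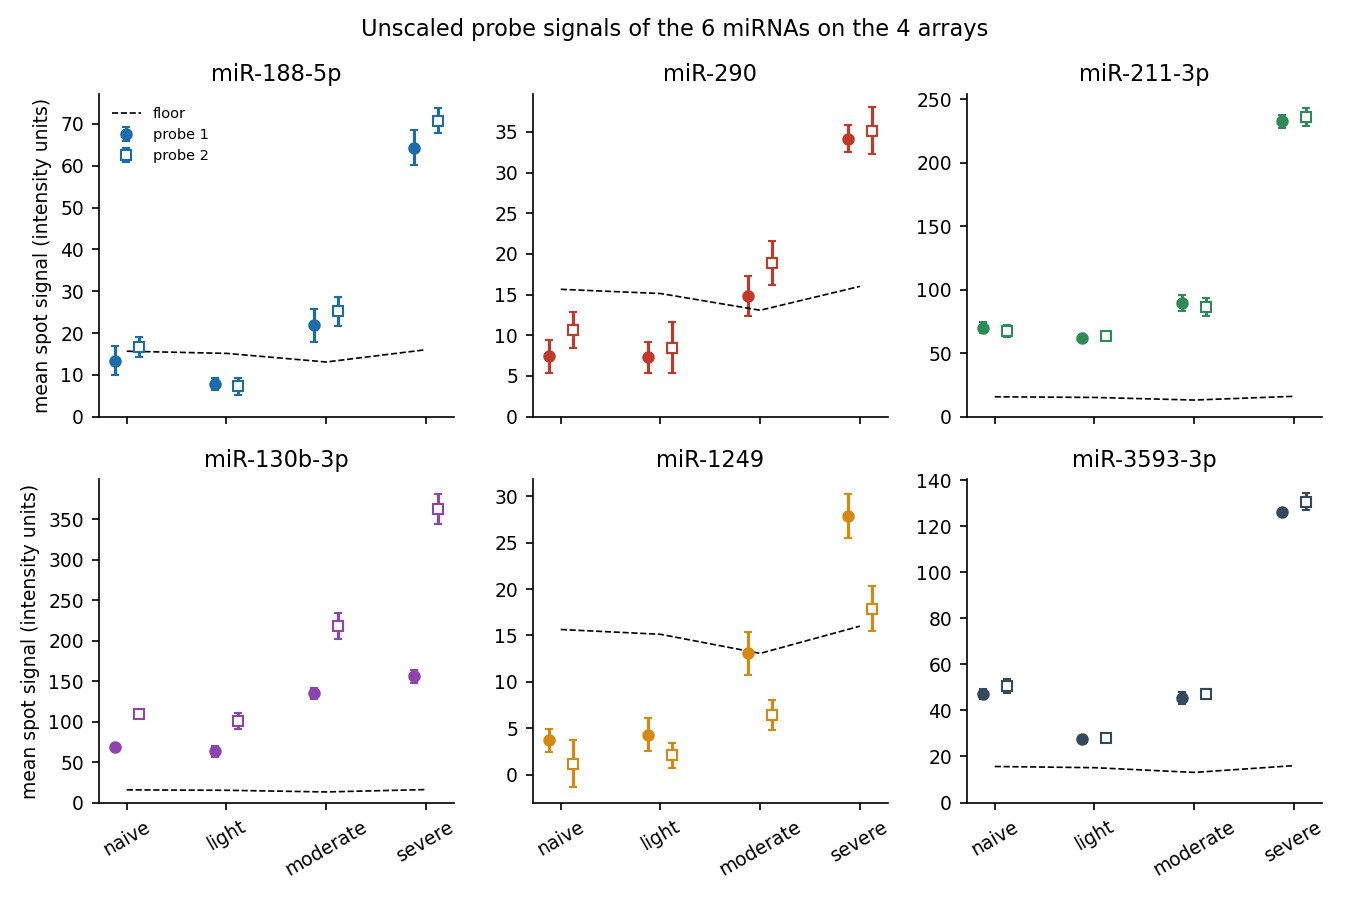
Unscaled signal of each probe (mean over its spots in intensity units, bars 1 SD over spots) on the 4 arrays, 1 panel per miRNA; the dashed line is the floor, the lowest probe signal counted as measurable on each array. Both probes of every miRNA were highest on the severe array, and those of miR-188-5p, miR-290 and miR-1249 lay near or below the floor on the naive and light arrays.

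The arrays differed in overall brightness, so each was scaled by its 75th percentile over the 111 miRNAs that all 4 detected, which came to 666, 356, 954 and 415 units. The summed signal of detected miRNAs on the severe array was 0.694 times that of the naive array, and its labelling spike-ins, synthetic RNAs added before labelling, gave 0.615 times the naive signal. The light and moderate arrays gave 0.643 and 1.58 times the naive summed signal, and 0.994 and 0.891 times the naive spike-in signal. The 6 miRNAs went against the brightness of the severe array. Before any scaling, the 5 detected on the naive array were between 2.63 times (miR-3593-3p) and 4.49 times (miR-188-5p) as bright on the severe array. A miRNA was counted as measured where the software detected it and it reached the floor, which is the dimmest probe mean for which a share of 0.5 or more of the spots stood well above background, at 15.6 units for naive, 15.1 for light, 13.1 for moderate and 16 for severe; the moderate floor is set by the first probe of miR-1249. Where only 1 of 2 arrays measured it, a minimum difference is given, computed from the floor or its own signal, whichever was higher, and the bound is not strict, since the floor is that of a single probe. Bounds are rounded to the nearest digit shown.

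On the severe array against the naive one, miR-188-5p was 7.20-fold higher after scaling (log2 2.85 ± 0.07). miR-290 was at least 6.17-fold higher, and miR-1249 at least 4.69-fold. miR-211-3p was 5.47-fold (log2 2.45 ± 0.02), miR-130b-3p 4.70-fold (log2 2.23 ± 0.03) and miR-3593-3p 4.21-fold higher (log2 2.08 ± 0.02). All 6 passed 2-fold, which the rule used, and 0 were lower by as much. Over all 137 miRNAs with a value here, 33 (24.1%) passed upward and 25 (18.2%) downward, or 23 and 53 without scaling. The median of the 6, bounds included, was log2 2.34, where that of the 109 miRNAs measured on both arrays was −0.11, and −0.79 without scaling. The nearest other miRNA above miR-188-5p in order was miR-652-5p, at 9.61-fold, and the nearest below miR-3593-3p was miR-212-3p, at 4.01-fold, so that the 6 do not form a separate class by size.

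Against the moderate array, labelled with the same day, the order within the 6 was different. miR-188-5p was again first at 6.60-fold (log2 2.72 ± 0.05), but miR-3593-3p followed at 6.38-fold (log2 2.67 ± 0.02) and miR-211-3p at 6.12-fold (log2 2.61 ± 0.03). The gap between miR-188-5p and miR-3593-3p lay within spot noise. miR-1249 stood at 5.39-fold (log2 2.43 ± 0.08), miR-290 at 4.72-fold (log2 2.24 ± 0.06) and miR-130b-3p last at 3.37-fold (log2 1.75 ± 0.03). All 6 passed 2-fold here too, which the rule used. Over all 169 miRNAs with a value, 30 (17.8%) passed upward and 30 (17.8%) downward, or 17 and 102 without scaling. The median of the 6 was log2 2.52, where that of all 115 miRNAs measured on both was −0.41, and −1.61 without scaling. The next miRNA below miR-130b-3p in order was miR-328a-5p, at 3.06-fold. Without scaling miR-130b-3p was 1.47-fold higher than on the moderate array and was the only one of the 6 under 2-fold there.

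The light array did not enter the rule, but the severe array did, so this comparison is no separate check. Disease grade and day (35 against 49) differ together in it. All 6 again passed 2-fold upward, as did 22.6% of 133 miRNAs, while 29.3% passed downward. This count depended on the background correction: with normexp 1 of the 6, miR-211-3p, passed, with miR-290 at log2 0.24 and miR-1249 at 0.19, and with the brightest probe 5 passed. With labelling spike-ins all 6 passed, and the counts over all miRNAs turned from 30 higher and 39 lower to 45 and 7. miR-188-5p was at least 7.66-fold, miR-290 at least 3.77-fold and miR-1249 at least 2.59-fold higher. miR-3593-3p was 3.94-fold (log2 1.98 ± 0.02), miR-211-3p 3.19-fold (log2 1.68 ± 0.02) and miR-130b-3p 2.71-fold higher (log2 1.44 ± 0.04). The median of the 6, bounds included, was log2 1.79, where that of all 104 miRNAs measured on both was −0.47, and 0.44 with scaling by labelling spike-ins.

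**Figure D2:**
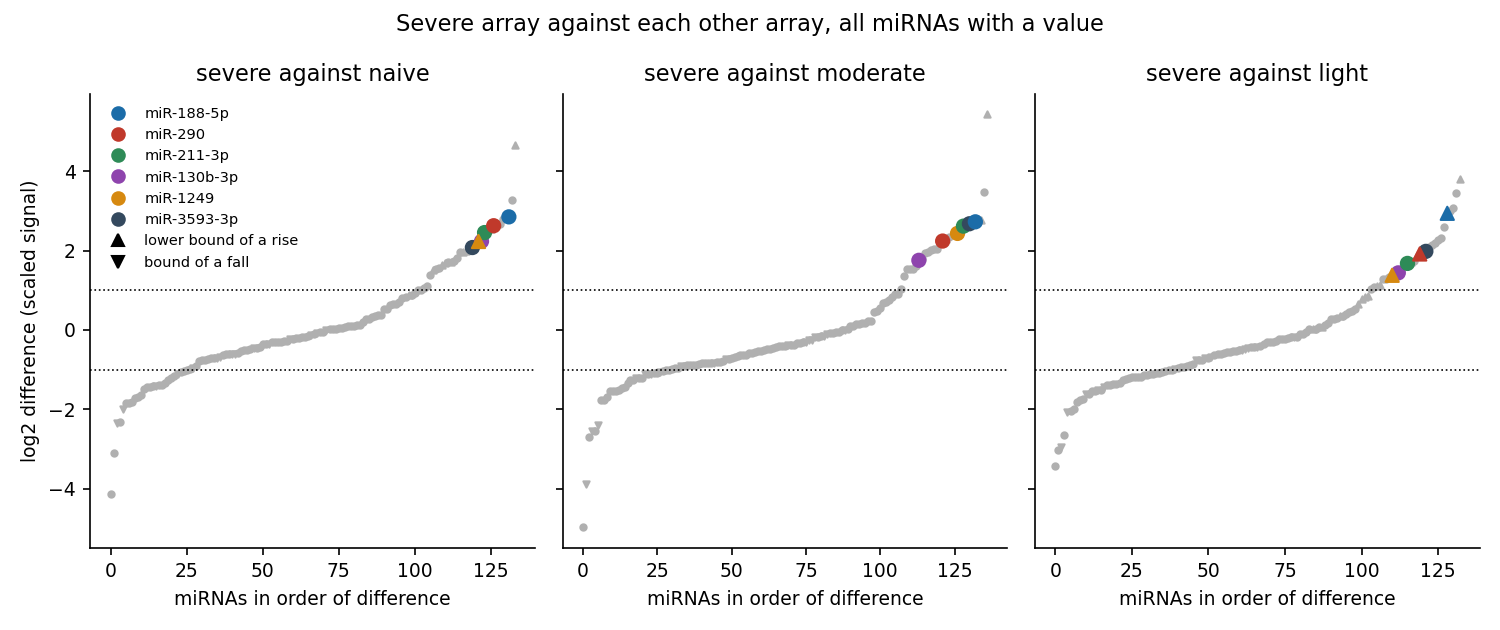
Difference in scaled log2 signal between the severe array and each other array for every miRNA with a value, in rising order; coloured points are the 6 miRNAs, triangles are bounds, dotted lines mark 2-fold. The 6 lay among the highest differences in each panel, with miR-652-5p above all of them.

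On the light and moderate arrays the differences of the 6 from naive were smaller and of both signs. The light and moderate comparisons share the naive array. On the moderate array 0 of the 6 passed 2-fold against naive, where 5.42% of 166 miRNAs passed upward and 1.2% downward. The median over all miRNAs measured on both was 0.22, and 0.91 with labelling spike-ins. miR-130b-3p stood at log2 0.48 ± 0.03, miR-188-5p at 0.12 ± 0.08, miR-211-3p at −0.16 ± 0.03 and miR-3593-3p at −0.60 ± 0.02. miR-290 stood at 0.39 ± 0.09, or more where its naive value is read as an upper limit. miR-1249 had no usable bound. The difference of miR-188-5p lay within spot noise. These signs depended on the scaling: with labelling spike-ins all 5 lay above 0, at 0.09 for miR-3593-3p, and miR-130b-3p (1.16) and miR-290 (1.07) then passed 2-fold. With the scanner software's total signal miR-290 passed as well, at 1.05. miR-130b-3p lay above 0 under all 12 alternative settings and miR-188-5p under 7 of 12. miR-290 lay above 0 under 8 of the 10 that gave it a value. It fell to −0.20 with quantile normalization and to −0.32 with normexp.

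On the light array 0 of the 6 passed 2-fold against naive, where 1.56% of 128 miRNAs passed upward and 0.781% downward. miR-130b-3p stood at log2 0.80 ± 0.04, miR-211-3p at 0.78 ± 0.03 and miR-3593-3p at 0.10 ± 0.03, beside a median of 0.27 over all 117 miRNAs measured on both arrays. Without scaling these were −0.11, −0.13 and −0.81, and they were below 0 with labelling spike-ins too. miR-188-5p, not detected on the light array, stood at −0.09 or less, and it passed 2-fold downward with the scanner software's total signal (−1.19) and in the deposited value table (−1.31). In the order of scaled levels, severe came first for all 6. The next was light for miR-211-3p, miR-130b-3p and miR-3593-3p, and moderate for miR-188-5p, whose naive level was not separable from it by spot noise. For miR-290 and miR-1249, which were not detected on the light array, the place of that array in the order is not determined.

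The 2 probes of a miRNA give separate readings under 1 name, and whether they bind other RNAs was not tested. For miR-211-3p and miR-3593-3p they were close, with the second probe at 0.960 to 1.08 times the first on every array. miR-188-5p had a ratio of 0.930 to 1.24, and miR-290 of 1.03 to 1.43. For miR-1249 the ratio was 0.492 for moderate and 0.642 for severe, the 2 arrays that detected it. For miR-130b-3p the second probe was 1.60, 1.60 and 1.62 times as bright as the first on the naive, light and moderate arrays, but 2.33 times on the severe array. Its severe difference from naive was accordingly 3.68-fold by the first probe and 5.34-fold by the second. For miR-211-3p the probes gave 5.32-fold and 5.63-fold, and for miR-3593-3p 4.30-fold and 4.14-fold.

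Single spots, outliers left out, can also be set side by side. For each of the 12 probes the dimmest severe spot was brighter than the brightest spot on the naive array and on the light array, without scaling. Against the moderate array this held for 11 of 12 probes. The exception was the first probe of miR-130b-3p, whose dimmest severe spot read 139.7 against 143.1 for its brightest moderate spot. Spots of 1 array share 1 RNA sample, so these counts describe the 4 arrays alone. The rule chose these miRNAs for being brighter on the severe array than on the naive or moderate array. Little overlap with those arrays was therefore largely fixed in advance. The light array did not enter the rule, but the severe array did. Other probes on the array were not counted in this way, so there is no share to compare with.

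Of the 28 listed relatives of the 6 on the array, 22 were not detected on any array. Most miRNAs were undetected on each single array too: the software detected 140, 122, 176 and 129 of 719. The array held the other strand of 4 of the 6 precursors, miR-188-3p, miR-211-5p, miR-130b-5p and miR-3593-5p, and none was detected on any array. miR-211-5p, the strand known from melanocytes, read between 3.47 and 6.95 units. In the miR-290 cluster, which in mouse is expressed as a unit in embryonic stem cells, 0 of the 10 other miRNAs on the array were detected on any array, and the highest signal among them was 5.94. Of these, miR-292-5p and miR-293-5p carry the seed of miR-290. miR-204-5p and miR-204-3p, from the paralog of miR-211, were not detected either.

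The miR-188 cluster was partly seen. The list used left out miR-3560, which the annotation also places near miR-188. Of the 8 other listed miRNAs on the array 3 were detected on at least 1 array. Those with a value for severe numbered 2 against naive, 3 against moderate and 2 against light, and 0 passed 2-fold. Over all miRNAs 24.1%, 17.8% and 22.6% passed upward and 18.2%, 17.8% and 29.3% downward. miR-532-5p against moderate (log2 −0.15 or less) and miR-362-3p against light (0.09 or more) were bounds, which cannot show a difference under 2-fold. miR-500-3p read 70.1, 54.0, 148 and 75.7, or log2 0.79 ± 0.05 for severe against naive. miR-362-3p read 16.3, 12.2, 38.2 and 18.7, or 0.88 ± 0.16. miR-532-5p read 15.1, 11.5, 40.8 and 11.1 and reached the floor on the moderate array alone. Without scaling these 3 were brightest on the moderate array. After scaling miR-500-3p was highest on the severe array, by less than 2-fold. miR-362-3p was higher there than on the naive and moderate arrays by less than 2-fold, with only a bound against light.

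The family of miR-130b gave 3 different pictures. miR-130a-3p, which differs from miR-130b-3p at 2 of 22 bases (A11U and G13A, positions from the 5′ end, the base of miR-130b-3p first), was bright on every array:
miR-130a-3p: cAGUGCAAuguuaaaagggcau
It read 1724 ± 18.5, 1457 ± 15.3, 3393 ± 39.9 and 2155 ± 20.5, so that without scaling it was brightest on the moderate array. After scaling it was 2.01-fold higher on severe than on naive, beside 4.70-fold for miR-130b-3p. Against moderate it stood at log2 0.54 ± 0.02, beside 1.75. miR-301a-3p read 180, 177, 338 and 98.9. On the severe array it stood at −0.18 ± 0.02 against naive, −0.58 ± 0.02 against moderate and −1.07 ± 0.03 against light. miR-301b-3p, the neighbour of miR-130b, was detected on the moderate array alone, with a background-subtracted sum of −1.51. Binding of miR-130a-3p to probes of miR-130b-3p was not tested; the probes' sequences were not used here.

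By profile, the 3 miRNAs measured on every array (miR-211-3p, miR-130b-3p and miR-3593-3p) were compared with the other 101 measured on all 4. Likeness was the root mean square difference over the 4 arrays between log2 profiles, each centred on its own mean. The nearest was miR-1224, at 0.19, followed by miR-494-3p at 0.23, miR-125a-3p at 0.28, miR-370-3p at 0.31 and miR-328a-5p at 0.35, where the median over the 101 was 1.13. miR-1224 read 9508, 6181, 9745 and 19827 units. The likeness is over 4 points, and the rule chose the members for the severe one.

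**Figure D3:**
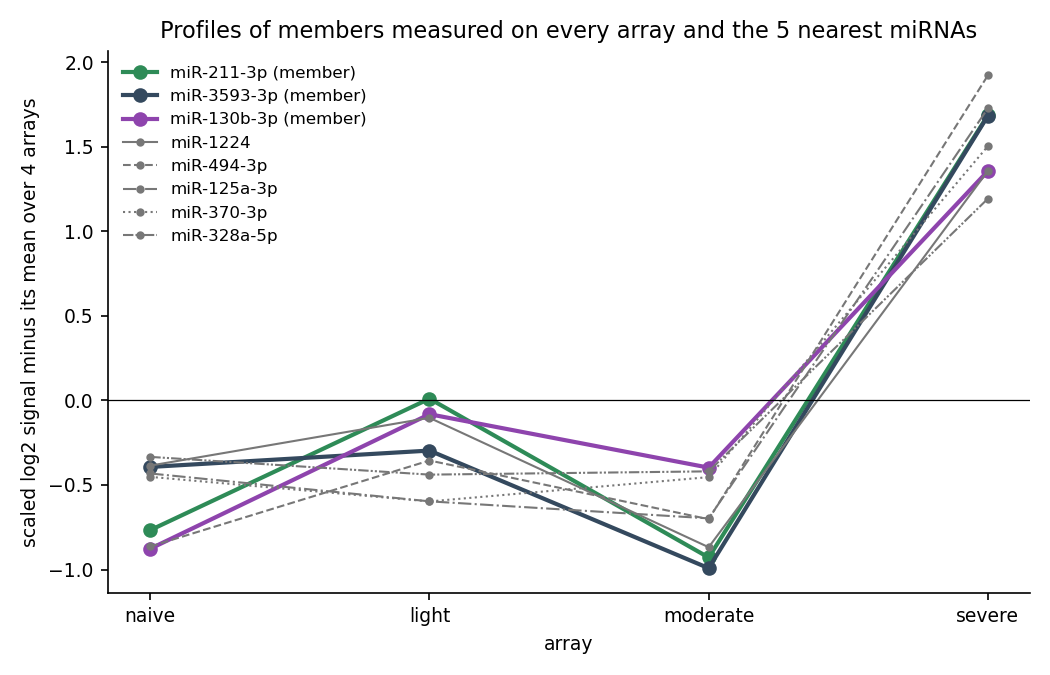
Scaled log2 signal minus its own mean over the 4 arrays, for the 3 miRNAs measured on every array (coloured) and the 5 nearest others (grey). All 8 lines were highest on the severe array, and miR-211-3p, miR-3593-3p, miR-1224 and miR-125a-3p were lowest on the moderate array.

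The guanine runs shown above were then looked for in the rest of the array. Of the 9 miRNAs with a run of at least 5, 5 were not detected on any array and 4 were. Those 4 were miR-290, miR-211-3p, miR-3593-3p and miR-652-5p, the last of which is not one of the 6:
miR-652-5p: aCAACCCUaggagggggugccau
miR-652-5p read 32.9, 15.5, 40.7 and 197 units and was 9.61-fold higher on the severe array than on the naive one. The 4 detected miRNAs with such a run stood 4.21-fold or more above naive. For the 3 that belong to the 6, the rule fixed this in advance. miR-652-5p was singled out after its values were seen, so the 4 together are no support for a link. Among the miRNAs outside the 6 that were measured on the severe and naive arrays and had a sequence, 9 of 24 with a run of at least 3 guanines passed 2-fold upward and 4 downward, with a median log2 difference of 0.21. Of the 68 with shorter runs 7 were higher and 14 lower, with a median of −0.28. Against the moderate array the counts were 10 higher and 5 lower of 26, beside 5 and 15 of 70. Against the light array they were 8 and 8 of 24, with a median of 0.02, beside 8 and 22 of 67, with a median of −0.58. Across these miRNAs, which share the same arrays, the length of the run and the difference had a Spearman rho of 0.12 against naive (92 miRNAs), 0.14 against moderate (96) and 0.10 against light (91). The motif was chosen after the sequences and values were seen, so these counts are a description, and what part base composition has in the signals was not tested.

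**Figure D4:**
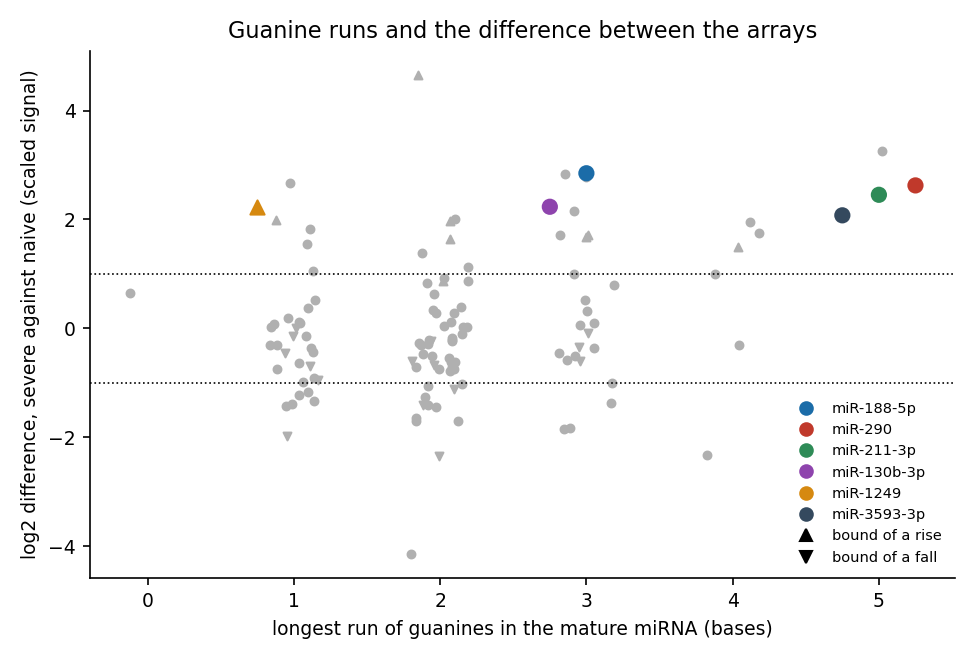
Longest run of guanines in the mature miRNA against the difference in scaled log2 signal between the severe and naive arrays, for every miRNA with a value and a RefSeq sequence; coloured points are the 6 miRNAs, triangles are bounds, and points are spread sideways to be seen. The 4 miRNAs with a run of 5 all lay above log2 2, but 3 of them belong to the 6, which were chosen for this difference. miR-1249 was the one of the 6 with no run.

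Markers of cells that release RNA into serum differed between the arrays too. The differences below are of scaled signals, whereas the sums are of unscaled signals of the detected miRNAs. Between naive and severe, 24.1% of all 137 miRNAs with a value passed 2-fold upward and 18.2% downward. The sums include the brightness of each array, whose total was 0.643, 1.58 and 0.694 times naive for light, moderate and severe. Of 3 lymphocyte miRNAs 2 passed 2-fold downward between naive and severe, and their summed signal was 925, 508, 1113 and 131. Of 4 muscle miRNAs 2 had a value between naive and severe, and these 2 were at least 2-fold lower. miR-133b-3p stood at log2 −4.14 and miR-1-3p at −2.35 or less. The muscle sums were 1251, 420, 3431 and 39.4. Of 3 red-cell miRNAs 1, miR-144-3p, was at least 2-fold higher, at log2 1.82. The others went the other way, miR-451-5p at −0.30 and miR-16-5p at −0.71. The red-cell sums were 35009, 24171, 55141 and 17123. Of the 3 platelet and myeloid miRNAs 0 passed 2-fold between naive and severe, with sums of 7121, 5380, 15016 and 2512. miR-126a-3p stood at −0.98, miR-223-3p at −0.91 and miR-142-3p at 0.03. Of the 2 hepatocyte miRNAs miR-192-5p was higher on severe, at log2 1.56 ± 0.02, and miR-122-5p stood at −0.75 ± 0.03, with sums of 1444, 283, 1427 and 1006. Of the pluripotent-cell markers miR-290 alone was detected, and 0 of the 4 others on the array. Both markers of melanocytes and retina, miR-211-5p and miR-204-5p, were undetected on all arrays. Most miRNAs on each array were undetected as well. The part of these cells in the values of the 6 miRNAs was not tested.

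**Figure D5:**
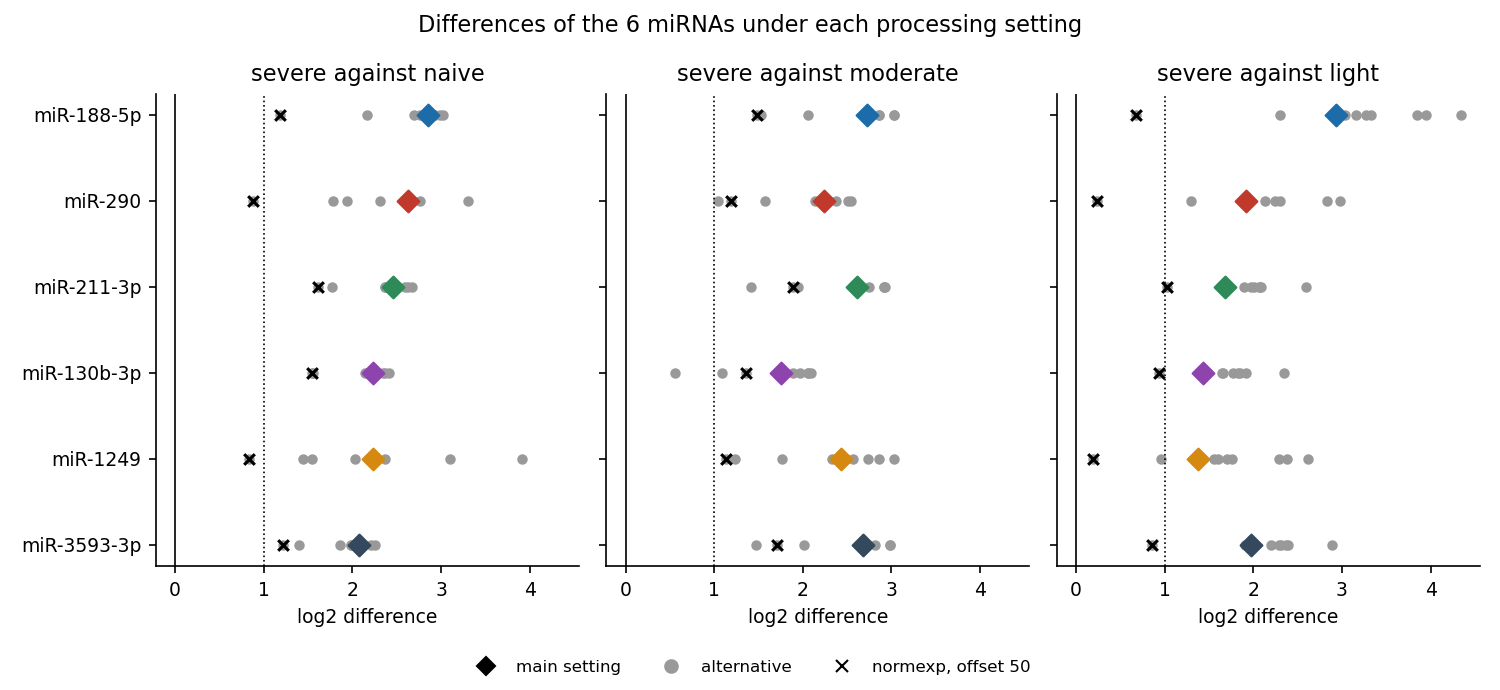
Difference in log2 signal between the severe array and each other array for the 6 miRNAs, as reported (diamonds), under the alternative settings (grey) and with the normexp background correction (crosses); the dotted line marks 2-fold. All values lay above 0, and the crosses were often the lowest.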

How the data were processed

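The members and lists were chosen with earlier results of these data known. Serum exosome RNA went onto 1-colour Agilent rat miRNA arrays (design 046066), all 4 on 1 slide with the same scan time per the file headers. The deposited intensity values were made by the authors with Agilent Feature Extraction 10.7.3.1 and protocol miRNA_107_Sep09, per the file headers, background-subtracted, spatially detrended and not scaled between arrays; the submitters' processing notes name version 9.1. The deposited files also hold detection calls and spot flags of 0 or 1. Outlier spots were left out, of 14380 on each array: 386 for naive, 387 for light, 386 for moderate and 525 for severe. Saturated spots numbered 0, and the median CV between spots was 4.48% to 5.49%. The software detected 140, 122, 176 and 129 miRNAs. Signals were summed, scaled and set to log2 as given above with Python 3.11.15; normexp used R 4.3.3 and limma 3.58.1. The alternatives changed the scaling, the summary of spots and probes, the background correction, detection and the floor. The calculation was tested on simulated data. Named miRNAs were the 6, their other strands, cluster, paralog and seed relatives, the 5 nearest profiles, and the neighbours in order; miR-652-5p under guanine runs was chosen after its values were seen. A sequence was found for 641 of 719 array names. The array annotation is on rn4 and RefSeq on GRCr8, so no coordinates are given.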

Additional observations from a re-analysis of the deposited data

Results flagged for a closer look

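Of the 3 members measured on every array, 2 had differences from the naive array of opposite signs on 2 disease arrays. miR-188-5p, not detected on the light array, stood at −0.09 or less there and at 0.12 ± 0.08, within spot noise, on the moderate array. miR-211-3p stood at log2 0.78, −0.16 and 2.45 for light, moderate and severe, so that moderate lay −0.94 from light and severe 2.61 from moderate. miR-3593-3p stood at 0.10, −0.60 and 2.08, so that moderate lay −0.70 from light and severe 2.67 from moderate. With 1 array per group these differences were not tested. The severe values kept their sign under each of the 12 alternatives run. The moderate value of miR-211-3p was above 0 in 2 of 12 alternatives and that of miR-3593-3p in 1 of 12, while their light values were above 0 in 10 and 4 of 12.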

How the results depend on the processing

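No paired analysis was possible because each group has 1 array. Scaling by the 75th percentile over all miRNAs was not run, since that percentile was below 0 on the light array. Under the other 12 alternatives the differences of the 6 miRNAs on the severe array lay above 0 in 210 of 210 values and reached 2-fold in 201. Of the 9 that did not, 7 came with normexp (offset of 50 units on each spot, which lowers folds by construction), 5 of them against light and 2 against naive, 1 without scaling (miR-130b-3p against moderate, 0.55) and 1 with the brightest probe (miR-1249 against light). With normexp the log2 difference from naive was 0.87 for miR-290, 0.83 for miR-1249 and between 1.18 and 1.61 for the other 4. The largest range against naive was that of miR-1249, up to 3.91 with the floor at the lowest summed signal. Counts of miRNAs 2-fold apart moved more. In the order severe against naive, moderate and light, then moderate and light against naive, the higher and lower counts were 33 and 25, 30 and 30, 30 and 39, 9 and 2, and 2 and 1. Without scaling they were 23 and 53, 17 and 102 (119 in all), 33 and 24, 48 and 1 (49), and 0 and 34. With labelling spike-ins they were 33 and 25, 24 and 73 (97), 45 and 7, 70 and 0, and 0 and 33. With median scaling they were 32 and 26, 32 and 21, 33 and 22, 7 and 5, and 1 and 5 (6), and with quantile normalization 31 and 30, 32 and 23, 32 and 31, 5 and 8, and 1 and 1. Totals with normexp were 20, 38, 12, 0 and 1. Other totals that moved by over 1.5 times were 93 (severe against moderate), 40 (moderate against naive) and 6 (light against naive) with the floor at the lowest summed signal, 23 and 5 for moderate and light against naive with the scanner software's total signal, 6 for moderate against naive with the brightest probe, 41 (severe against light) and 5 (light against naive) in the deposited value table, and 5 for light against naive where spots well above background set detection. The cause of these moves was not tested. Signal over background limits miR-290, miR-1249 and miR-188-5p on the naive and light arrays.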

Other observations

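The authors' deposited value table lists 102 miRNAs, 4 of the 6 among them; miR-290 and miR-1249 are not among its rows. It holds the scanner software's total signal within 0.0424%, unscaled and on a linear scale, and the choice of its rows is not stated. In the order naive, light, moderate, severe its medians were 189, 107, 304 and 114. For miR-188-5p that total signal was 20.4, 0.1, 32.2 and 94.2, where 0.1 stands for not detected. For miR-3593-3p it was 66.2, 37.0, 63.2 and 179.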
